A study of Mus musculus with 10 samples.

Results

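The 10 genes described here encode enzymes, an enzyme partner and a receptor of the prostaglandin and leukotriene pathways, and they were taken by name: Alox5, Alox5ap, Lta4h and Ltb4r1 of the leukotriene branch, the lipoxygenase genes Alox8 and Alox12, and Ptgs1, Ptgs2, Ptges and Hpgd of the prostaglandin branch. All 10 were found among the 55414 genes of the deposited table, and all 10 were among the 14062 genes with enough counts to be tested. The data are polyadenylated RNA from mouse gingival epithelium, the lining of the gum around the teeth, released with the protease Dispase and lifted off with forceps. The 5 buccal libraries come from the side facing the cheek and the 5 palatal libraries from the side facing the palate. The labels used here give no strain, age, sex, treatment or microbial status for either side, and whether each library is its own animal is not stated, so every p-value here reflects library-to-library spread that could be purely technical. The design text of the series describes pools of specific-pathogen-free and of germ-free mice, and nothing in the labels ties these 10 libraries to such pools.

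Prostaglandins and leukotrienes are short-lived lipid signals made from arachidonic acid, a fatty acid that phospholipases cut from membranes. Cyclooxygenases, encoded by Ptgs1 and Ptgs2, turn it into the precursor of all prostanoids, from which Ptges makes prostaglandin E2, and Hpgd inactivates the product. Lipoxygenases oxidise the same fatty acid, and 5-lipoxygenase starts the route to the leukotrienes, which draw in and activate leukocytes.

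Palatal epithelium had less transcript of the 5-lipoxygenase pair Alox5 and Alox5ap and more of Ptges and Alox8. Alox5 fell 5.15-fold and Alox5ap 4.13-fold, while Alox8 rose 3.71-fold and Ptges 3.27-fold (edgeR quasi-likelihood test, n = 5 per side). Alox12, Lta4h and Ltb4r1 also passed the test with differences of 1.20-fold to 1.22-fold. Ptgs1, Ptgs2 and Hpgd did not pass. In all, 4 members were higher and 3 lower in palatal at a false discovery rate of 0.05, that is 70% of the members, against 38.9% of all genes tested (18.7% higher and 20.3% lower). The median absolute log2 fold change was 0.43 for the members and 0.22 for all genes tested. For 6 members the buccal and palatal ranges did not overlap, as was the case for 28.3% of all genes tested. The members were chosen with earlier results of these data known, so the share is a description.

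The upstream sequences of the members that differed most and have an entry in the RefSeq promoter table are shown because Ptges and Alox8 rose while Alox5 fell, and no entry was found for Alox5ap. Each is the 250 bases before the annotated transcript start in build GRCm38.p6, in the direction of transcription. The Alox5 window is chr6:116461179-116461428 on the minus strand, the Alox8 window chr11:69197844-69198093 on the minus strand and the Ptges window chr2:30903298-30903547 on the minus strand. Capitals mark the GC box GGGCGG, the motif that Sp1-family factors bind, searched on both strands.
Alox5: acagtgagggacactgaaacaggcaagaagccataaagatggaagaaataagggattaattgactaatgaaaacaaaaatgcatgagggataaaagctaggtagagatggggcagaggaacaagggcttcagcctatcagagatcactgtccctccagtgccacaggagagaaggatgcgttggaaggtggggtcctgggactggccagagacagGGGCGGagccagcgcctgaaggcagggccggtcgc
Alox8: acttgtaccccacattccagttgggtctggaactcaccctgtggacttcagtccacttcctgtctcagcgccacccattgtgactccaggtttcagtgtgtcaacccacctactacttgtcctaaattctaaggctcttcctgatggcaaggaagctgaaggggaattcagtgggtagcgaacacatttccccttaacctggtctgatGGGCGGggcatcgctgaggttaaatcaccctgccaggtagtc
Ptges: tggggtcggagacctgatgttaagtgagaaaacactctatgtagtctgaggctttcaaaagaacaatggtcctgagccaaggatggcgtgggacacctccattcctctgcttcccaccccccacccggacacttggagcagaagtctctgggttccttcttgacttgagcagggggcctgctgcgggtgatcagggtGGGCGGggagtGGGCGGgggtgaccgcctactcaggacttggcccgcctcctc
The Alox5 and Alox8 windows hold 1 GC box each and the Ptges window 2, which do not overlap. The motif was found in 7 of the 9 members' windows, those of Alox12, Ptgs2, Hpgd and Ltb4r1 included, and in 32.7% of all 32851 windows of this length. It stood in windows of genes that rose, fell or did not pass the test. The GC content of the 9 windows was 48.0% to 61.6%, beside a median of 52.4% for all windows. The share over all windows was not matched for GC content. CCAAT was found in the window of Lta4h only (33.8% of all windows), and TATAAA (12.4%), the AP-1 motif TGANTCA (6.75%) and CACGTG (6.02%) in none of the 9. These are matches of letters, not evidence of binding.

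Library totals ran from 25868777 to 37234192 counts. The 10 genes together held 0.0342% to 0.0366% of each library, a range in which the sides overlapped. The sample type was checked through keratinocyte markers: Krt5, a basal keratin, stood at 4500 CPM in buccal and 4302 CPM in palatal libraries, and E-cadherin (Cdh1) at 573 and 586 CPM, neither past the test. Of the 8 keratinocyte markers 5 passed, in both directions, beside 38.9% of all genes tested. Krt14, Dsp and Perp rose by 0.96 ± 0.13, 0.39 ± 0.10 and 0.55 ± 0.08 log2 units. The mucosal keratins Krt4 and Krt13 fell by 2.07 ± 0.12 and 0.76 ± 0.10. The sum of the 8 markers was 129317 to 149566 CPM in buccal and 77534 to 86237 CPM in palatal libraries, so the keratinocyte profile was not the same on the 2 sides. CPM stands for counts per 1000000 counts of the library, with library sizes scaled by the trimmed mean of M-values (TMM). Expression in a library of mixed cells does not separate fewer cells of a type from less RNA per cell.

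**Figure D1:**
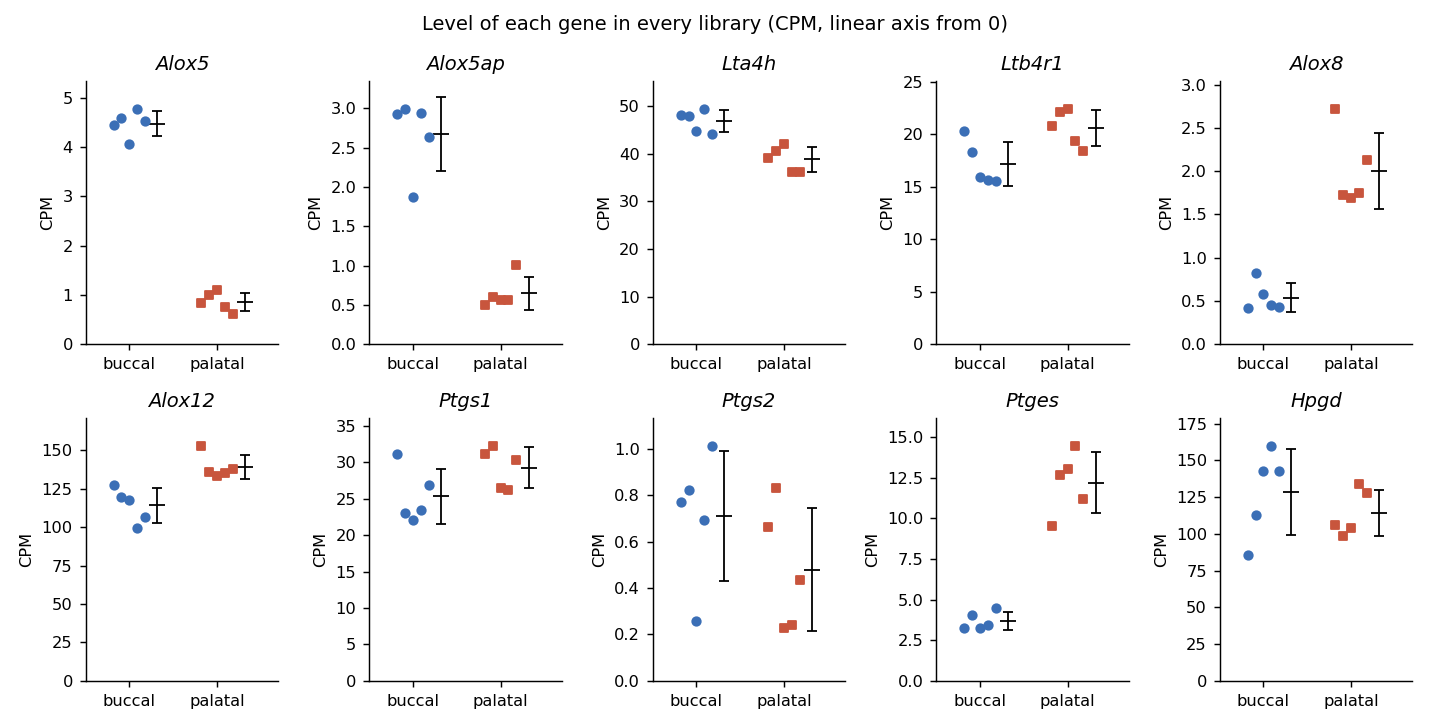
Level of each of the 10 genes in every library, in CPM on a linear axis from 0, with buccal libraries as circles, palatal libraries as squares (left to right, replicates 1 to 5) and the mean ± SD of each side as a black bar (n = 5). The sides are fully apart for Alox5, Alox5ap, Lta4h, Alox8, Alox12 and Ptges and overlap for Ltb4r1, Ptgs1, Ptgs2 and Hpgd.

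In the leukotriene branch, Alox5 encodes 5-lipoxygenase, which makes leukotriene A4. It stood at 4.44, 4.60, 4.06, 4.77 and 4.53 CPM in buccal libraries 1 to 5 and at 0.828, 0.989, 1.10, 0.757 and 0.613 CPM in palatal libraries 1 to 5. The lowest buccal library lay well above the highest palatal one, and the buccal libraries were tightly grouped, with a coefficient of variation of 5.88%. The log2 fold change, palatal minus buccal, was -2.36 ± 0.15 (SE; edgeR adjusted p = 1.99e-08), which placed Alox5 at rank 152 by p among the 14062 genes.

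Alox5ap encodes FLAP, the membrane protein that hands arachidonic acid to 5-lipoxygenase. Its level was 2.93, 2.99, 1.87, 2.94 and 2.64 CPM in buccal and 0.497, 0.606, 0.564, 0.558 and 1.01 CPM in palatal libraries. Buccal library 3 was low and palatal library 5 high within their sides, yet the sides did not overlap. The log2 fold change was -2.05 ± 0.21 (SE; edgeR adjusted p = 2.28e-06), and -2.25 without palatal library 5. The annotation places 189 bases of an antisense gene, Gm19719, over its exons, and that gene was counted at 1 read in buccal and 0 in palatal libraries.

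Lta4h encodes leukotriene A4 hydrolase, which turns the product of 5-lipoxygenase into leukotriene B4. It was at 48.2, 47.8, 44.8, 49.3 and 44.2 CPM in buccal and 39.2, 40.6, 42.1, 36.2 and 36.2 CPM in palatal libraries. The palatal libraries were all lower, by a small step: the log2 fold change was -0.27 ± 0.06 (SE; edgeR adjusted p = 0.0038). Ltb4r1 encodes BLT1, the high-affinity receptor for leukotriene B4. It was at 20.3, 18.3, 15.9, 15.6 and 15.5 CPM in buccal and 20.8, 22.1, 22.4, 19.3 and 18.4 CPM in palatal libraries. Buccal library 1 lay within the palatal range, so the sides overlapped, and the log2 fold change was 0.27 ± 0.09 (SE; edgeR adjusted p = 0.031). That call was lost without buccal library 3, 4 or 5 or palatal library 1, 2 or 3 (adjusted p from 0.052 to 0.0799) and with scaling by library totals (adjusted p = 0.115).

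Markers of leukocytes were lower in palatal libraries beside the 5-lipoxygenase genes, and their part in the result was not tested. The summed level of 5 pan-leukocyte markers was 24.1 to 41.5 CPM in buccal and 7.93 to 11.1 CPM in palatal libraries, and all 5 fell, among them Laptm5 by 1.78 ± 0.16 and Ptprc, the CD45 gene, by 1.64 ± 0.15 log2 units. All 8 Langerhans and dendritic cell markers fell, with a summed level of 214 to 381 CPM in buccal and 66.8 to 93.2 CPM in palatal libraries. Their falls ran from 1.11 ± 0.27 log2 units for Flt3 to 2.11 ± 0.15 for Cd207, which encodes langerin. Cd74, the most abundant of the 8, fell by 1.85 ± 0.16. Alox5 and Alox5ap stood at -2.36 and -2.05. Of 9 macrophage and monocyte markers 7 were tested and 7 fell (29.5 to 46.4 CPM against 13.5 to 20.1 CPM summed), and of 8 T cell markers 5 were tested and 5 fell (4.07 to 8.08 CPM against 1.72 to 2.29 CPM summed). Beside these counts, 20.3% of all genes tested were lower in palatal libraries. Scarce markers may have been tested only because of their buccal counts. Those of T cells are among them, as are Flt3 and Zbtb46, the latter at 0.080 to 0.180 CPM in palatal libraries.

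Defining markers of granulocytes and mast cells, other known sources of leukotrienes, were at or near 0. Of 9 neutrophil markers 1 was tested, Cxcr2, which fell by 1.36 ± 0.11 log2 units. Ly6g and Elane had 2 counts each over the buccal and 0 over the palatal libraries. The direction was mixed at such counts, since Ngp had 24 and 7, Csf3r 15 and 17, and Mmp8 2 and 3. The neutrophil sum was 9.52 to 12.5 CPM in buccal and 3.78 to 4.75 CPM in palatal libraries, most of it from Cxcr2. Of 8 mast cell markers only Kit, which melanocytes also express, was tested, and it rose by 1.03 ± 0.13. Hdc went the other way, with 37 counts over the buccal and 17 over the palatal libraries, and was not tested. Tpsb2 had 4 counts in buccal and 1 in palatal, Cpa3 3 and 0, Fcer1a 1 and 0, Mcpt4 1 and 3, Cma1 1 and 2, and Ms4a2 0 in both. The mast cell sum was 3.22 to 5.71 CPM in buccal and 8.37 to 9.90 CPM in palatal libraries, most of it from Kit. None of 5 eosinophil markers was tested, with Epx at 0 counts in both sides and a sum of at most 0.16 CPM in buccal and 0.253 CPM in palatal libraries.

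**Figure D2:**
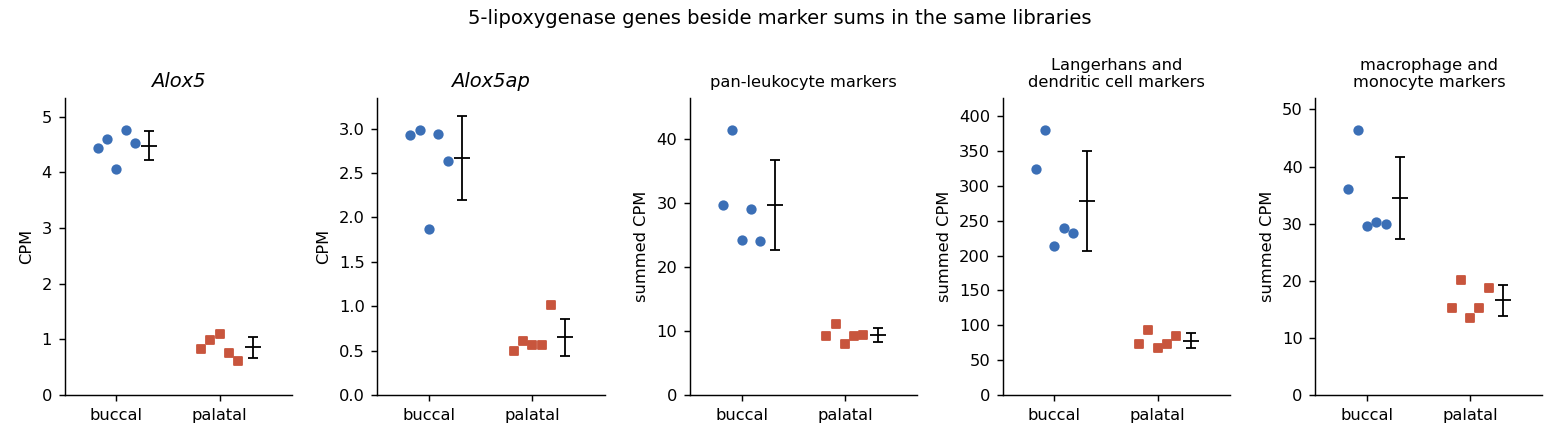
Alox5 and Alox5ap (CPM) beside the summed CPM of pan-leukocyte, Langerhans and dendritic cell, and macrophage and monocyte markers in the same libraries, on linear axes from 0, with circles for buccal, squares for palatal and black bars for mean ± SD (n = 5). In all 5 panels the palatal libraries lie below the buccal ones, and buccal library 2 is the highest of its side in the 3 marker panels and in that of Alox5ap, and buccal library 4 in that of Alox5.

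Among the lipoxygenases outside the leukotriene route, Alox8 encodes the mouse enzyme that oxygenates arachidonic acid at carbon 8. It stood at 0.418, 0.821, 0.58, 0.449 and 0.426 CPM in buccal and at 2.72, 1.72, 1.69, 1.75 and 2.13 CPM in palatal libraries, from 13 to 25 and 44 to 82 counts. Every palatal library was at 1.69 CPM or above and no buccal one reached 1 CPM. The log2 fold change was 1.89 ± 0.22 (SE; edgeR adjusted p = 1.01e-05). Alox12 encodes platelet-type 12-lipoxygenase, which keratinocytes also make. It was at 127, 119, 118, 99.4 and 106 CPM in buccal and at 153, 136, 133, 135 and 138 CPM in palatal libraries. The sides did not overlap, and palatal library 1 stood above the rest of its side. The log2 fold change was 0.28 ± 0.07 (SE; edgeR adjusted p = 0.00649). Of 7 platelet markers 2 were tested: Itga2b fell by 0.66 ± 0.10, and Ppbp had a log2 fold change of -0.32 ± 0.62 (edgeR adjusted p = 0.732). The platelet sum was 16.3 to 32.8 CPM in buccal and 13.3 to 24.2 CPM in palatal libraries. Pf4 had 6 counts over the buccal and 0 over the palatal libraries and Gp9 had 1 and 0, whereas Gp1bb had 9 and 15.

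In the prostaglandin branch the terminal synthase differed and the cyclooxygenases did not pass the test. Ptges encodes microsomal prostaglandin E synthase 1, which makes prostaglandin E2. Its level was 3.25, 4.07, 3.29, 3.46 and 4.50 CPM in buccal and 9.54, 12.7, 13.1, 14.5 and 11.2 CPM in palatal libraries. The lowest palatal library was more than 5 CPM above the highest buccal one. The log2 fold change was 1.71 ± 0.13 (SE; edgeR adjusted p = 9.8e-08, rank 253 by p of the 14062 genes). Some markers of fibroblasts and glands were also higher in palatal libraries, and their part in this result was not tested. Of 7 fibroblast markers 5 were tested and 2 rose, Dcn by 3.47 ± 0.17 and Fbn1 by 2.91 ± 0.24 log2 units. Fbn1 was scarce in buccal libraries, at 0.161 to 0.29 CPM, and may have been tested only because of its palatal counts. Col1a1, Col1a2 and Col3a1 did not pass, with log2 fold changes of -0.34, 0.22 and -0.07. Lum and Pdgfra were not tested, with 11 and 36 counts over the buccal and 16 and 25 over the palatal libraries. The fibroblast sum was 6.95 to 13.1 CPM in buccal and 72.4 to 91.3 CPM in palatal libraries, most of it from Dcn on the palatal side (73.3 CPM on average). Of 7 salivary gland markers 2 were tested, and Lpo rose by 1.56 ± 0.34 with overlapping sides. The gland sums of 0.932 to 9.95 CPM and 4.60 to 62.2 CPM overlapped between the sides as well. Muc5b, which carried most of that sum, went from 2.85 to 25.6 CPM on average and had a log2 fold change of 3.21 ± 1.14 (edgeR adjusted p = 0.0541). Lpo and Muc5b fell to 0.193 and 0.133 CPM in their lowest buccal libraries. Both may have been tested only because of their palatal counts. Endothelial marker sums overlapped, at 3.38 to 6.86 CPM and 2.36 to 7.41 CPM.

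Ptgs1 encodes COX-1, the cyclooxygenase that many tissues make at all times. It was at 31.2, 23.0, 22.1, 23.5 and 26.9 CPM in buccal and 31.2, 32.3, 26.4, 26.3 and 30.3 CPM in palatal libraries. Buccal library 1 was as high as the palatal libraries, and the log2 fold change of 0.21 ± 0.10 (SE) did not pass (edgeR adjusted p = 0.111). Without buccal library 1 it was 0.30 and passed (adjusted p = 0.0157). Ptgs2 encodes COX-2, the cyclooxygenase induced by inflammation and growth signals. It was at 0.772, 0.821, 0.258, 0.691 and 1.01 CPM in buccal and 0.662, 0.83, 0.226, 0.239 and 0.433 CPM in palatal libraries, from 6 to 38 counts. The sides overlapped and the log2 fold change was -0.57 ± 0.38 (SE; edgeR adjusted p = 0.263). Its coefficient of variation between libraries was 39.3% in buccal and 55.4% in palatal, the highest of the 10 genes in each side.

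Hpgd encodes 15-hydroxyprostaglandin dehydrogenase, which inactivates prostaglandin E2. It was at 85.8, 113, 143, 160 and 143 CPM in buccal and 106, 98.5, 104, 134 and 128 CPM in palatal libraries. The buccal libraries spanned the whole palatal range, and the log2 fold change of -0.17 ± 0.15 (SE) did not pass (edgeR adjusted p = 0.392).

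**Figure D3:**
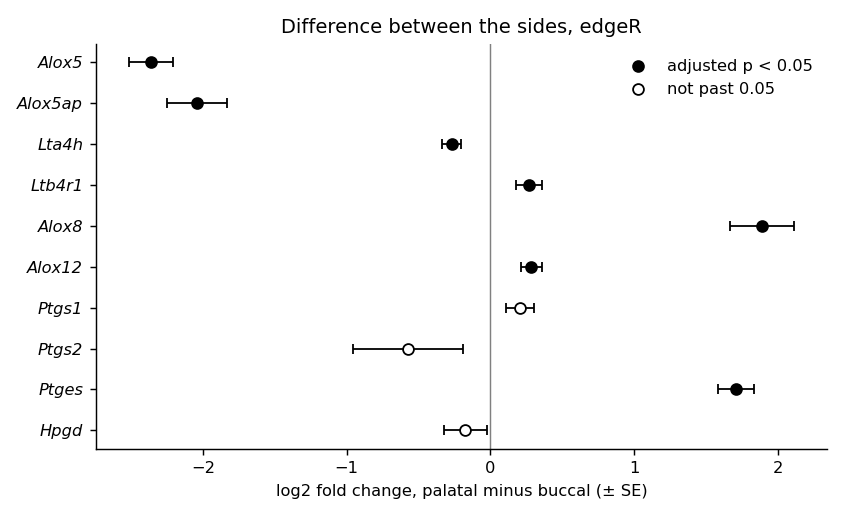
Log2 fold change of each of the 10 genes, palatal minus buccal, with its standard error, from the edgeR test on 5 libraries per side. Filled points passed an adjusted p of 0.05 and open points did not. Alox5 and Alox5ap lie near -2, Alox8 and Ptges near 2, and the other 6 lie between -0.57 and 0.28.

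Levels of different genes were compared per kilobase of exon. On the scale of CPM per kilobase, Hpgd was the highest of the 10 in both sides (76.5 ± 17.4 buccal and 67.8 ± 9.36 palatal, mean ± SD of 5 libraries) and Alox12 the next (27.9 ± 2.72 and 34.0 ± 1.93). Ltb4r1 followed at 12.3 ± 1.52 and 14.8 ± 1.24. Lta4h and Ptgs1 came next, at 7.68 ± 0.365 and 6.53 ± 0.962 in buccal and, in the opposite order, at 6.37 ± 0.434 and 7.54 ± 0.715 in palatal libraries. Their ranges overlapped in each side.

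The lower end of that order changed between the sides. In buccal libraries it ran Alox5ap (1.88 ± 0.331), Alox5 (1.09 ± 0.0641), Ptges (0.944 ± 0.14), Ptgs2 (0.155 ± 0.061) and Alox8 (0.151 ± 0.048) CPM per kilobase, where the ranges of Alox5 and Ptges overlapped, as did those of Ptgs2 and Alox8. In palatal libraries it ran Ptges (3.10 ± 0.478), Alox8 (0.563 ± 0.123), Alox5ap (0.456 ± 0.146), Alox5 (0.209 ± 0.0467) and Ptgs2 (0.104 ± 0.0578), where the ranges of Alox8 and Alox5ap overlapped and so did those of Alox5 and Ptgs2. The exon lengths join the exons of all annotated transcripts of a gene, so they can exceed the length of the transcripts present. They also come from an annotation of another build than the counts. The values, and the order of the genes, are therefore approximate.

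Ratios of counts within a library do not depend on how libraries are scaled, and 5 were tested over all ways of dividing the libraries 5 and 5 (two-sided exact permutation, smallest possible p 0.00794). The log2 ratio of Ptges to Hpgd, a synthase against the enzyme that breaks its product down, rose from -5.09 ± 0.371 on the buccal to -3.23 ± 0.261 on the palatal side (SD, n = 5), a shift of 1.86 with no overlap (exact permutation p = 0.00794, adjusted p = 0.0132 over the 5 ratios). The log2 ratio of Alox5ap to Lta4h was -4.14 ± 0.241 in buccal and -5.92 ± 0.45 in palatal libraries, and that of Alox12 to Alox8 was 7.73 ± 0.386 and 6.13 ± 0.216. Both were lower in palatal without overlap, with shifts of -1.77 and -1.60 (exact permutation p = 0.00794 and adjusted p = 0.0132 each). These ratios use the same counts as the single-gene tests and are not separate evidence. Ptges, Alox5ap and Alox8 alone had log2 fold changes of 1.71, -2.05 and 1.89.

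Ratios with Ptgs2 did not separate the sides. That of Ptgs2 to Ptgs1 was -5.24 ± 0.658 on the buccal and -6.06 ± 0.676 on the palatal side (exact permutation p = 0.0952, adjusted p = 0.119), and that of Ptgs2 to Hpgd was -7.56 ± 0.904 and -8.01 ± 0.925 (exact permutation p = 0.421, adjusted p = 0.421). Library 3 of the buccal side was the lowest of its side in both, and without it the first ratio differed by -1.10 and passed (exact permutation test, adjusted p = 0.0496).

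**Figure D4:**
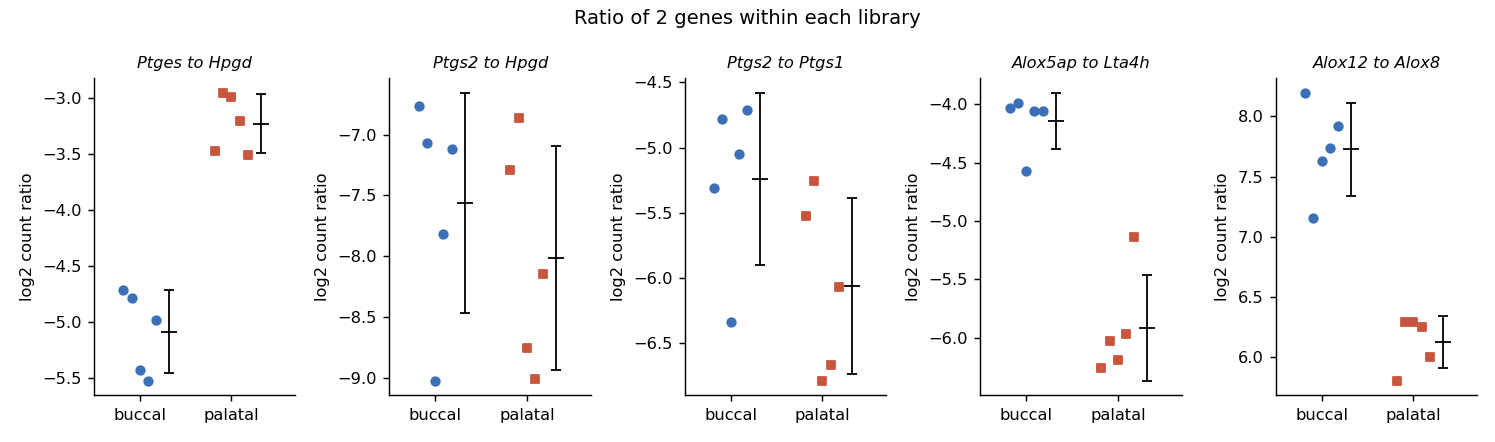
Log2 ratio of the counts of 2 genes in each library for the 5 pairs tested (axes do not start at 0), with circles for buccal, squares for palatal and black bars for mean ± SD (n = 5). The sides are apart for Ptges to Hpgd, Alox5ap to Lta4h and Alox12 to Alox8 and overlap for both ratios with Ptgs2.

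Other genes of the pathway were read from a list of 81, of which 51 were tested, 8 higher and 24 lower in palatal (62.7%, against 38.9% of all genes), and their median log2 fold change was -0.12, beside 0.01 for all genes. Enzymes that release arachidonic acid moved in both directions: of 21 listed, 16 were tested, 5 rose and 9 fell. The secreted phospholipase genes Pla2g2e and Pla2g5 rose by 3.93 ± 0.16 and 1.98 ± 0.12 log2 units (SE; edgeR adjusted p = 1.56e-10 and 7.37e-09). Pla2g2e went from 0.559 to 0.997 CPM across buccal libraries to 8.60 to 12.4 CPM across palatal ones. The diacylglycerol lipase gene Daglb fell by 1.65 ± 0.09 and the cytosolic phospholipase family gene Pla2g4e by 1.52 ± 0.09 (edgeR adjusted p = 3.16e-09 and 6.76e-09). Within these families the direction was mixed, since the secreted Pla2g3 fell by 1.10 ± 0.14 and the cytosolic family gene Pla2g4d rose by 0.38 ± 0.12 (edgeR adjusted p = 3.06e-05 and 0.0232). Pla2g4a, which encodes the cytosolic phospholipase best known for feeding this pathway, fell by 0.26 ± 0.09 (edgeR adjusted p = 0.0389), and Pla2g3, Pla2g4d and Pla2g4a were named after their values were seen.

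Of 9 further prostanoid synthase and reductase genes 6 were tested, 1 rose and 3 fell. Akr1c18, an aldo-keto reductase gene, rose by 1.88 ± 0.17 log2 units (edgeR adjusted p = 7.54e-07), from 1.94 to 2.36 CPM in buccal to 4.93 to 10.2 CPM in palatal libraries. Hpgds, the prostaglandin D synthase of blood cells, fell by 1.59 ± 0.22 (edgeR adjusted p = 5.20e-05), and Cbr1 and Ptges3, a cochaperone also described as a prostaglandin E synthase, fell by 0.28 ± 0.09 and 0.19 ± 0.06. Ptges2, another prostaglandin E synthase gene, stood at -0.08 ± 0.10 (edgeR adjusted p = 0.587) and was named after its value was seen. Among 7 transport and breakdown genes, all tested, Slco2a1, the prostaglandin uptake carrier, fell by 1.04 ± 0.09 (edgeR adjusted p = 4.89e-07) and the reductase gene Ptgr1 by 0.34 ± 0.12 (adjusted p = 0.042), and the other 5 did not pass. Slco2a1 was at 17.7 to 21.8 CPM in buccal and 8.64 to 11.6 CPM in palatal libraries, without overlap.

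Of 9 prostanoid receptor genes 2 were tested. Ptger3, the EP3 receptor for prostaglandin E2, fell by 0.44 ± 0.16 log2 units with overlapping sides (edgeR adjusted p = 0.0399), and Ptger4, the EP4 receptor, stood at 0.23 ± 0.20 (adjusted p = 0.4). Ptger2, the EP2 receptor, had 1 count over the buccal and 2 over the palatal libraries. Of 11 further genes of leukotriene synthesis and breakdown 6 were tested and 3 fell: Mgst2, which can make leukotriene C4, by 1.17 ± 0.13, Ggt5, which trims it to leukotriene D4, by 0.92 ± 0.27, and Mgst3 by 0.58 ± 0.14 (edgeR adjusted p = 5.44e-06, 0.0127 and 0.00479). Ggt5 was scarce, at 0.380 to 0.708 CPM in buccal and 0.159 to 0.325 CPM in palatal libraries. It may have been tested only because of its buccal counts. Ltc4s, the dedicated leukotriene C4 synthase, had 46 counts over the buccal and 6 over the palatal libraries and was below the filter. Of 5 further leukotriene receptors only Ltb4r2, the low-affinity receptor for leukotriene B4, was tested, at 0.23 ± 0.10 (edgeR adjusted p = 0.0742), beside 0.27 for Ltb4r1.

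The 4 lipoxygenase genes outside the 10 were all tested, and 3 fell. Alox15 ranged from 207 to 1020 CPM in buccal and from 20.4 to 52.9 CPM in palatal libraries, Alox12e from 10.5 to 40.5 and 5.78 to 12.9 CPM, and Alox12b, a skin barrier lipoxygenase, from 559 to 721 and 428 to 487 CPM. Their log2 fold changes were -3.85 ± 0.55, -1.49 ± 0.42 and -0.56 ± 0.09, and Alox12e overlapped between the sides. The other of these genes, Aloxe3, stood at 0.25 ± 0.11 (edgeR adjusted p = 0.09), beside 0.28 ± 0.07 for Alox12. Of 8 epoxygenase branch genes 7 were tested, 1 rose and 3 fell: the epoxygenase gene Cyp2j6 rose by 0.77 ± 0.09, and Ephx3, Ephx2 and Cyp2c65 fell, with log2 fold changes of -0.93 ± 0.09, -0.85 ± 0.12 and -1.07 ± 0.14. Of 7 receptor and annexin genes 2 were tested. Lgr6, reported as a receptor for the lipid mediator maresin 1, rose from 2.56 to 4.10 CPM in buccal to 11.2 to 13.0 CPM in palatal libraries, and Anxa1 stood at 0.00 ± 0.09 log2 units (edgeR adjusted p = 0.983). Genes of these lists with 0 counts in every library were Pla2g2a, Pla2g1b, Cyp4f14, Gpr17, Cyp2c55 and Fpr3.

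**Figure D5:**
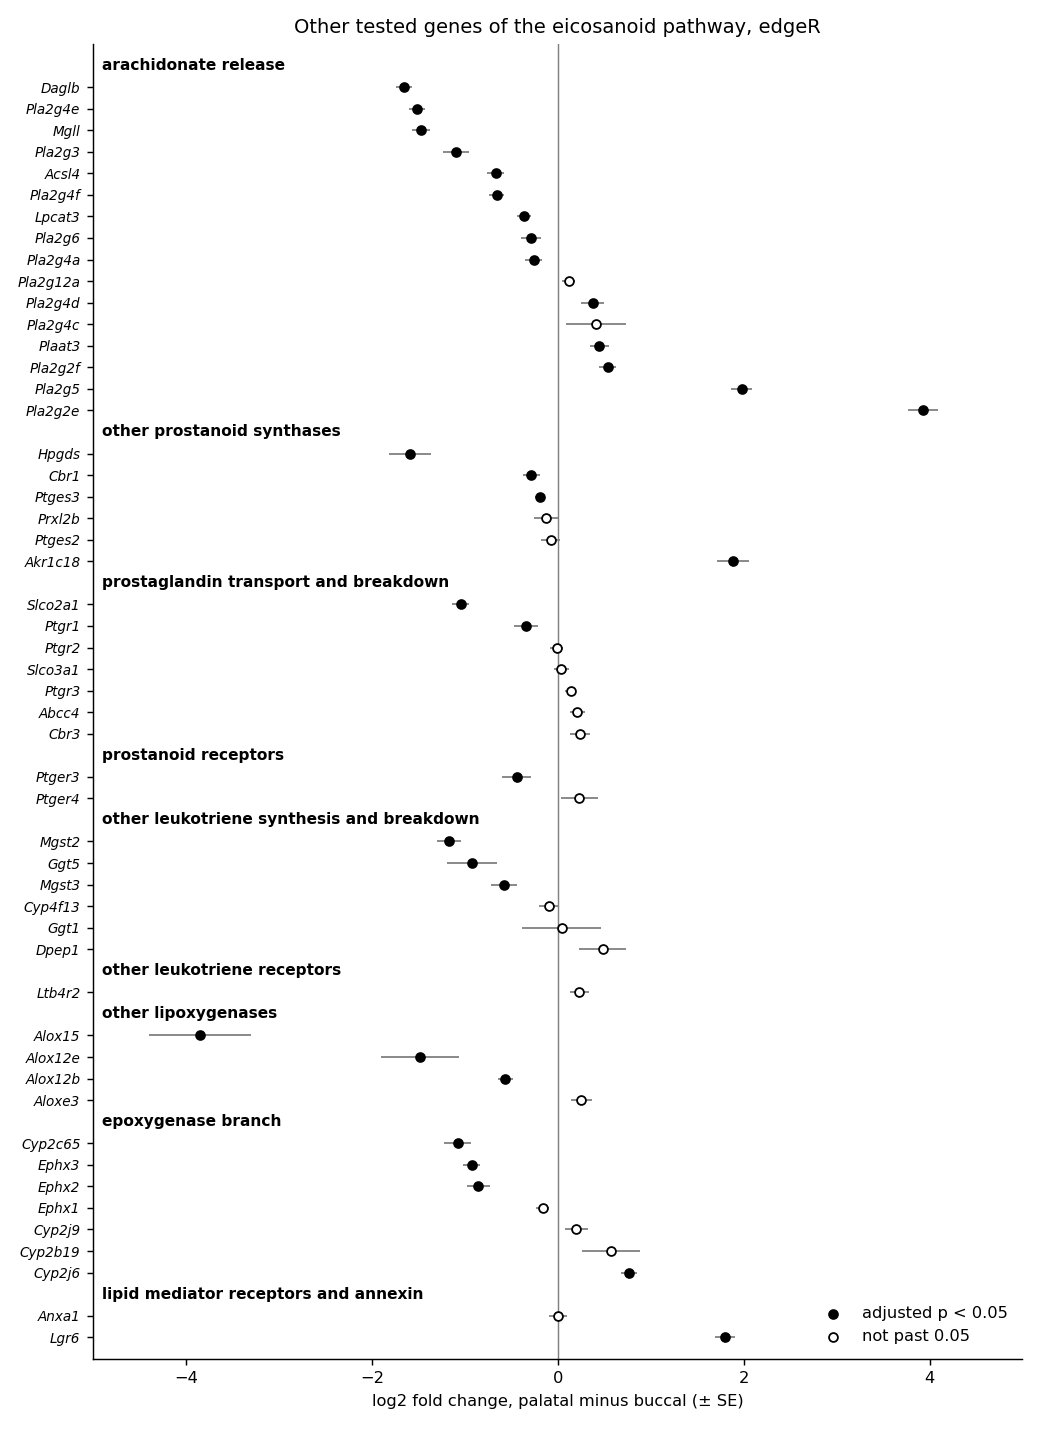
Log2 fold change, palatal minus buccal, with its standard error, of the 51 tested pathway genes outside the 10, grouped by list (edgeR, 5 libraries per side). Filled points passed an adjusted p of 0.05 and open points did not, and Pla2g2e at 3.93 and Alox15 at -3.85 mark the ends of the range.

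Genes with the profile most like each member were sought by Pearson correlation of log2 CPM over the 10 libraries, among 10782 or 10783 other genes with a mean of at least 2 CPM. The libraries form 2 sides, so the coefficients mostly reflect the step between them and are given as a description. The nearest were Cd207 and Atp2a3 for Alox5ap (r = 0.99 each), Xpnpep1 and Aldh3b2 for Alox5 (0.99 each), Lgals12 and Dlx5 for Alox8 (0.99 and 0.98), and Gpm6a and Adal for Ptges (0.99 each). For the members with small or no steps they were Rufy2 and Stab1 for Alox12 (0.98 and 0.97), Traf2 and Lasp1 for Lta4h (0.97 each), Slc25a12 and Ninj1 for Ltb4r1 (0.94 and 0.93), Eif4ebp2 and Zxdc for Ptgs1 (0.94 and 0.92), Syne1 and Ube2n for Hpgd (0.94 and 0.93), and Zbtb34 and Gna13 for Ptgs2 (0.92 and 0.89). For deviations from the side means other genes came first for Alox5 (Traf2, 0.93), Alox5ap (Bcl11b, 0.91), Alox8 (Rufy3, 0.93) and Ptges (Senp5, 0.95), while Rufy2 stayed among the nearest 2 of Alox12 (0.94) and Traf2 of Lta4h (0.89).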

How the data were processed

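Gingival epithelium RNA was sequenced as stranded single-end polyA libraries, per the labels' protocols. Build GRCm39 and the tools HTSeq 2.01, TopHat2 2.1.1, cutadapt 2.10 and DESeq2 appear without roles in the submitters' processing notes. How HTSeq counted, strand included, is not given in the sources used here. Per the file headers, the authors deposited raw counts and DESeq2-normalized values, a signal that proved to be each count over a library's own constant. Of 55414 genes, 6250 blank in every library were left out.

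Genes passing edgeR's filterByExpr (minimum count 10) were TMM-scaled and tested with edgeR's quasi-likelihood F-test, two-sided, Benjamini-Hochberg adjusted over 14062 genes (edgeR 4.0.16, limma 3.58.1, DESeq2 1.42.0, R 4.3.3). Standard errors were taken as |log2 fold change| over the root of F. Ratios used log2 of counts plus 0.5. The test was checked on simulated data that gave every gene the same dispersion and changed only genes with a mean of at least 1 CPM. That check does not cover genes as scarce and variable as Ptgs2. Alternatives were other scalings, filters, tests and thresholds, the replicate number as a block, and each library left out; leaving out number 2 on both sides was added after seeing the data. Exon lengths are from GENCODE M21, and 9 promoters from RefSeq. Prostaglandin reductase 3 was matched under its older symbol Zadh2.

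Members and lists were chosen with earlier results of these data known. The rule named all members, up to 4 genes past the threshold per list by smallest p, genes at 0, up to 2 abundant markers per cell type and the 2 genes most like each member; not all are printed, and markers outside this rule were picked as defining genes.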

Additional observations from a re-analysis of the deposited data

Results flagged for a closer look

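With 5 samples a side, about 1 group in 20 has a library that stands apart by chance at the level used (a gap to the next library of over 0.71 of the side's range), and 5 of the 74 groups checked did. Palatal library 5 stood apart for Alox5ap at 1.01 CPM, against 0.497 to 0.606 CPM in the other 4, and for the log2 ratio of Alox5ap to Lta4h at -5.14, against -6.25 to -5.97. Buccal library 3 stood apart for the same ratio at -4.57, against -4.06 to -3.99. Palatal library 1 stood apart for Alox12 at 153 CPM, against 133 to 138 CPM. Buccal library 2 stood apart for Cyp2j6 at 46.6 CPM, against 37.1 to 39.7 CPM. Alox5ap, Alox12 and the ratio kept their direction and call without any one of these libraries.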

How the results depend on the processing

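Of 219 values of the members' log2 fold changes under other settings, 206 kept direction and side of the threshold and none reversed. Of the others, 12 lost the call, 10 of them for Ltb4r1 and 6 of those with a library left out, and 1 gained it (Ptgs1 without buccal library 1). Ptgs2 has no value with at least 1 CPM in 5 libraries, a filter it did not pass. The calls for Alox5, Alox5ap, Alox8 and Ptges were kept under every alternative run, with log2 fold changes of -2.47 to -2.26, -2.25 to -1.96, 1.76 to 2.14 and 1.65 to 1.79. Against a fold of 1.5 edgeR's test called 675 genes higher and 816 lower (2624 and 2850 in the report's test), 2 members were higher and 2 lower in place of 4 and 3, and 4 and 10 of the other pathway genes passed in place of 8 and 24, since small differences cannot pass such a test. With each library left out, 3 to 5 members were higher and 3 lower. Of the 14181 to 14232 genes tested in these runs, 2348 to 2613 were higher and 2516 to 2817 lower. The ratio of Ptgs2 to Ptgs1 differed by -1.10 to -0.64. Without number 2 on both sides 3 members were higher and 3 lower, beside 2538 higher and 2769 lower of 14089 genes tested, and 9 and 20 other pathway genes passed.

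The numbers 1 to 5 recur on both sides. Deviations of same-numbered libraries from their side means correlated at -0.02 to 0.33 across genes, and 3 of 5 buccal libraries correlated best with their own number. The labels do not say whether the numbers pair the samples, and these values do not settle it. The main test did not pair them. With the number as a replicate block 4 members were higher and 3 lower, 2643 genes were higher and 2875 lower, and 9 and 24 other pathway genes passed. Flipping signs within the 5 pairs gave the same ratio shifts of 1.86, -1.77 and -1.60 for Ptges to Hpgd, Alox5ap to Lta4h and Alox12 to Alox8. Their adjusted exact p was 0.0781, in a design of 5 pairs that cannot reach 0.05. Ptgs2 to Ptgs1, with a shift of -0.82, had the same adjusted sign-flip p of 0.0781, so this test does not tell it from those 3. Counts per library were lowest for Ptgs2 (6 to 38), Alox8 (13 to 82) and Alox5ap (14 to 99), which limits the precision of their values.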

Other observations

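Hpgd and Ltb4r1 varied in opposite ways within the buccal side. Buccal library 1 had the lowest Hpgd (85.8 CPM) and the highest Ltb4r1 (20.3 CPM), and the 3 buccal libraries with Hpgd at 142.5 CPM or above had Ltb4r1 at 15.5 to 15.9 CPM. On the palatal side libraries 4 and 5 had the highest Hpgd (134 and 128 CPM) and the lowest Ltb4r1 (19.3 and 18.4 CPM). Deviations of the 2 genes from their side means correlated at -0.95, the most extreme value among all pairs of the members. The pattern was noticed after the values were seen and was not tested.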
